A study of Mus musculus with 10 samples.

Results

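NF-κB is a family of dimeric transcription factors, and its 5 subunit genes (Rela, Rel, Relb, Nfkb1 and Nfkb2) were followed here together with 5 genes whose products restrain the pathway or that the pathway itself switches on (Nfkbia, Nfkbie, Tnfaip3, Traf1 and Traf3). These 10 genes were chosen by name for their place in the pathway, out of 22380 genes with estimated counts, and all 10 passed the filter on low counts in every comparison. Expression was measured by RNA-seq in NP-binding germinal center B cells of the C57Bl6/N strain, with 1 library per mouse. There were 6 ZBTB38 KO mice and, as controls, 2 each of ZBTB38 WT and ZBTB38 HET. ZBTB38 WT mice were Zbtb38fl/fl without Cre, ZBTB38 HET mice carried 1 floxed allele and Vav-Cre (Zbtb38fl/+ x Vav-Cre), and ZBTB38 KO mice were Zbtb38fl/fl x Vav-Cre. All mice had been immunized 2 weeks earlier with NP-OVA, a hapten coupled to ovalbumin, while the labels call the cells untreated. The comparisons ask whether loss of ZBTB38, a zinc finger protein of the BTB-ZF family, alters gene expression in these cells. Vav-Cre acts mainly in blood-forming cells, so deletion was not limited to B cells, the floxed line goes back to a single founder, and the ages of the mice are not given in the sources used here.

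In resting cells, NF-κB dimers are held in the cytoplasm by IκB proteins. Signals from CD40, the B cell receptor and Toll-like receptors activate the IκB kinases, IκB is degraded, and dimers of RELA or REL with the processed product of Nfkb1 enter the nucleus (the canonical pathway). Stabilization of the kinase NIK leads instead to processing of the Nfkb2 product and to RELB dimers (the noncanonical pathway), and several target genes, among them Nfkbia and Tnfaip3, encode inhibitors that close the loop. In germinal centers, B cells selected by T cell help in the light zone receive CD40 signals, while dividing dark zone cells show little NF-κB activity.

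Libraries held between 26612431 and 41059082 estimated counts, and the members had between 745 (the lowest of Tnfaip3) and 8672 (the highest of Nfkbia) counts in a library. The part of counting error in the spread between mice was not tested. That spread was small in some control groups, as for Tnfaip3 in WT plus HET (63.3 ± 1.61 CPM, SD, n = 4). Zbtb38 was at 162 and 152 CPM in ZBTB38 WT, 117 and 106 CPM in ZBTB38 HET and 18.6 to 50.3 CPM in ZBTB38 KO, and every KO library lay below every control. These sums take in all exons, so they do not measure what is left of the coding sequence. The study reports that reads in the floxed exon, where the whole coding sequence lies, were lost completely in KO. All 9 germinal center B cell markers were above 1 CPM in every library and summed to 7753 to 10945 CPM. KO replicate 6 (median correlation of 0.954 with the other libraries) and KO replicate 1 (0.971) stood apart from the other 8, which lay between 0.978 and 0.983. The libraries also differed with transcript length. Over 8587 genes, Spearman's rho between a library's log2 deviation from the gene mean and the effective length of the gene, the length over which reads can start, was -0.66 in KO replicate 1, -0.42 in KO replicate 3 and -0.30 in KO replicate 6. It was -0.04 in KO replicate 5, and between 0.27 and 0.52 in the other 2 KO and all 4 control libraries. The median deviation of KO replicate 1 was 0.48 on the log2 scale for genes under 1000 bases and -0.36 for genes over 4000 bases. Among the members, Rel (7233 bases), Tnfaip3 (4037 bases) and Traf3 (3969 bases) had the longest effective lengths, and Nfkbia (1345 bases) had the shortest. The fold changes of controls against KO are therefore also given without KO replicates 1 and 6 and with an offset for length in the fit, both chosen after seeing the data. These were not computed for the comparisons of HET alone.

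**Figure D1:**
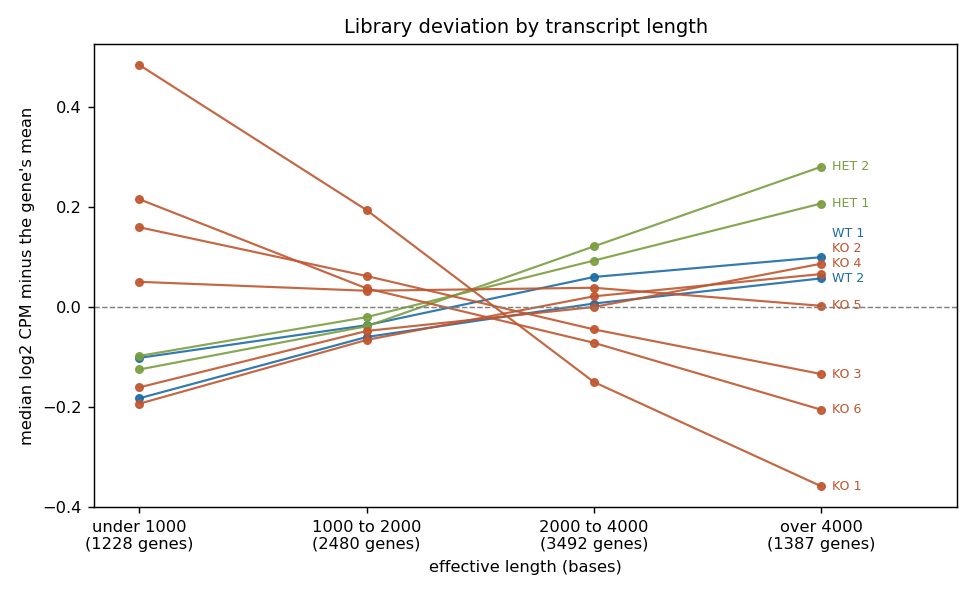
Median log2 deviation of each library from the gene's mean CPM (y axis) for genes grouped by effective length in bases (x axis), with 1 line per library coloured by genotype (blue WT, green HET, orange KO). KO replicate 1 falls from 0.48 to -0.36 with length, and both HET libraries rise to above 0.2 among genes over 4000 bases.

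NF-κB dimers recognize a 10-base DNA element, the κB site, that starts with G bases and ends with C bases. The windows from 250 bases before to 50 bases after annotated start sites (RefSeq table, GRCm38.p6) were searched on both strands, with overlapping matches kept. A loose form of the element (GGG, any 5 bases, CC) was in 50.8% of the 32851 windows of all genes and in 10 of the 11 windows of the members, and a narrower form (GGG, any 2 bases, TT, any base, CC) in 4.79% of all windows and in 7 of the 11. Of the 8 members in the table, 5 held the narrower form: the inhibitor genes Tnfaip3 and Nfkbia, the subunit genes Rel and Nfkb2, and Traf3. Their matches are shown as candidate sites at which NF-κB dimers could bind near genes of their own pathway. Each is written 5′ to 3′ on the strand of the gene with the match in capitals and 10 bases on each side.
Tnfaip3, chr10:19015403-19015432, minus strand: aatttccatcGGAAATCCCCctgttggcaa
Rel, chr11:23771042-23771071, minus strand: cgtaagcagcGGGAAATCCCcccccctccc
Nfkbia, chr12:55492657-55492686, minus strand: tgactggcttGGAAATTCCCcgcgcctgac
Traf3, chr12:111166350-111166379, plus strand: ggcggcccgcGGGGATTTCCagcgcgcgag
Nfkb2 first site, chr19:46304688-46304717, plus strand: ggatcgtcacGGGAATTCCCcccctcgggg
Nfkb2 second site, chr19:46304716-46304745, plus strand: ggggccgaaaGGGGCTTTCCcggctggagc
Nfkb2 last site, chr19:46305695-46305724, plus strand: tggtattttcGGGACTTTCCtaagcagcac
The first capital base lay at -12 relative to the annotated start in Tnfaip3, at -92 in Rel, at -29 in Nfkbia, at -10 in Traf3 and at -39 and -11 in Nfkb2, and the last Nfkb2 site lay at 10 from a further annotated start of that gene and at -225 from another. In the Gencode vM21 annotation of GRCm38, the Tnfaip3 site lies in an intron of the gene (chr10:19000910-19015657), the Nfkb2 sites lie in untranslated sequence of first exons (gene chr19:46304320-46312385), and the sites of Rel, Nfkbia and Traf3 lie just upstream of the annotated genes. The matches in Tnfaip3, Rel and Nfkbia read as the element on the opposite strand. Matches shifted by 1 base in Rel and Nfkb2 are not shown apart. A match describes letters only, and no binding was measured.

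Mean levels per transcript length ran from 13.1 to 195 TPM among the members. Nfkbia, which encodes IκBα, had the highest mean level at 195 ± 21.0 TPM (SD, n = 10), and it was above the gene next in order, Traf1, in 10 of 10 libraries. Traf1, an adaptor of TNF receptors, followed at 88.1 ± 21.1 TPM. Rela at 75.2 ± 10.7 TPM, Nfkb2 at 73.2 ± 15.2 TPM and Nfkb1 at 70.1 ± 11.2 TPM were close to each other, and Rela exceeded Nfkb2 in 6 and Nfkb2 exceeded Nfkb1 in 7 of 10 libraries, so these 3 subunit genes did not separate beyond their spread. Nfkbie, which encodes IκBε, was at 66.6 ± 11.0 TPM and lay below Nfkb1 in 6 of 10 libraries. Relb at 45.2 ± 6.90 TPM was below Nfkbie in every library and above Tnfaip3 in every library. Tnfaip3 at 17.0 ± 5.47 TPM, Traf3 at 13.7 ± 3.26 TPM and Rel at 13.1 ± 3.32 TPM came last, with Tnfaip3 above Traf3 in 8 and Traf3 above Rel in 7 of 10 libraries. Within the subunit genes, Rela made up 27.2% ± 1.47 of the summed TPM, Nfkb2 26.2% ± 2.10, Nfkb1 25.4% ± 2.51, Relb 16.5% ± 2.34 and Rel 4.68% ± 0.620 (SD, n = 10). The TPM ratio of Nfkbia to Rela was 2.65 ± 0.547 on average and was highest, at 3.91, in KO replicate 1.

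**Figure D2:**
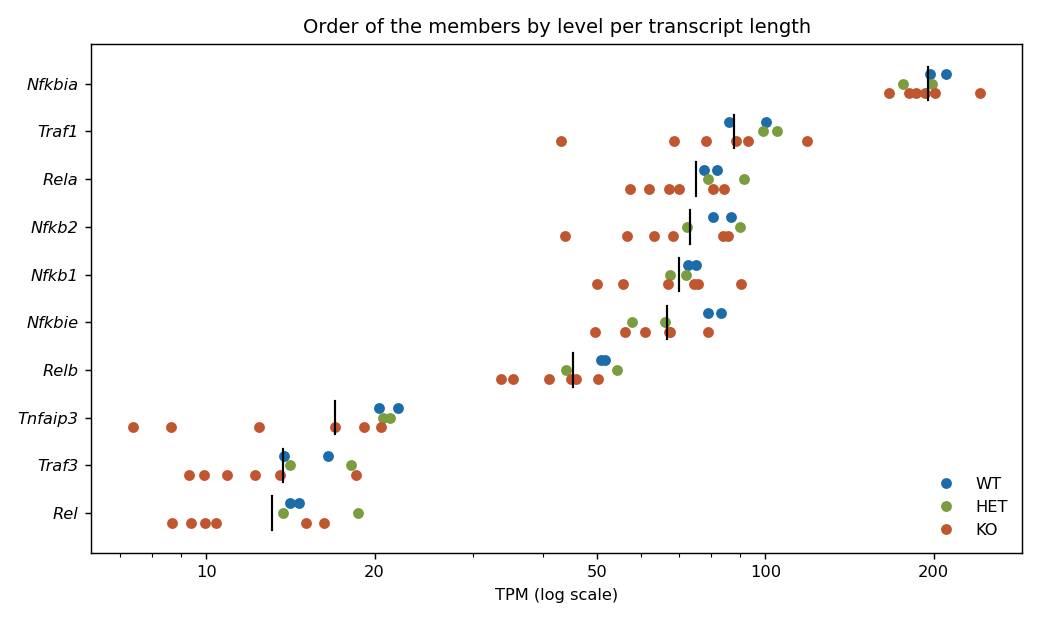
TPM of each member (x axis, log scale) in every library, with 1 point per library coloured by genotype and a black line at the mean of the 10 libraries. Nfkbia lies apart at 167 to 242 TPM, Traf1, Rela, Nfkb2, Nfkb1 and Nfkbie overlap, and Tnfaip3, Traf3 and Rel lie at 7.41 to 22.1 TPM.

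The subunit genes of the canonical pathway showed small differences between genotypes. Rela, the main transactivating subunit, was at 149 and 138 CPM in ZBTB38 WT, at 146 and 166 CPM in ZBTB38 HET, and at 123 (lowest), 138 (median) and 148 (highest) CPM in ZBTB38 KO. The genotypes overlapped, and the log2 fold change of WT over KO was 0.05 (SE 0.124), 0.02 with the offset for length and 0.04 without KO replicates 1 and 6. Nfkb1 was at 117 and 119 CPM in WT, at 119 and 107 CPM in HET, and at 95, 115 and 139 CPM in KO. The KO libraries spanned all the control values of Nfkb1, and the fold change was 0.01 (SE 0.155) on the log2 scale, 0.004 with the offset for length and -0.08 without KO replicates 1 and 6.
Rel, which encodes c-Rel, a subunit needed by germinal center B cells, was at 74.6 and 76.2 CPM in WT, at 74.2 and 98.7 CPM in HET, and at 56.7, 60.8 and 81.9 CPM in KO. In 4 of the 6 KO libraries Rel lay below all 4 controls, and in the other 2 it lay within their range. The log2 fold change was 0.19 (SE 0.179) for WT against KO and 0.29 (SE 0.142) for WT plus HET against KO. With the offset for length the latter fell to 0.04, and without KO replicates 1 and 6 it was 0.21.

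The subunit genes of the noncanonical pathway also overlapped between genotypes. Nfkb2 was at 180 and 164 CPM in WT, at 154 and 187 CPM in HET, and at 118, 149 and 172 CPM in KO, with the lowest value in KO replicate 1. Its KO values overlapped those of both control genotypes, and the log2 fold change of WT over KO was 0.21 (SE 0.154). It was 0.14 with the offset for length and 0.11 without KO replicates 1 and 6. Relb was at 72.5 and 71.2 CPM in WT, at 78.7 and 62.4 CPM in HET, and at 56.2, 64.7 and 75.0 CPM in KO. KO replicate 6 was above both WT libraries and below the higher HET library, and the log2 fold change was 0.17 (SE 0.156), 0.19 with the offset for length and 0.21 without KO replicates 1 and 6.

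Tnfaip3 had the largest fold change between controls and ZBTB38 KO of the 10 members, and its KO mice were spread widely. It encodes a ubiquitin-editing enzyme that ends signalling to the IκB kinases. Tnfaip3 was at 62.1 and 64.6 CPM in WT and at 64.9 and 61.8 CPM in HET. In KO it was at 27.2 CPM in replicate 1, 47.1 in replicate 2, 41.7 in replicate 3, 54.2 in replicate 4, 62.9 in replicate 5 and 31.0 CPM in replicate 6. The 4 controls were close together, and 5 of the 6 KO libraries lay below all of them, with only replicate 5 within their range. The level was 1.44-fold higher in WT than in KO (95% confidence interval 0.931 to 2.22, log2 fold change 0.52, SE 0.284) and 1.44-fold higher in WT plus HET than in KO (1.05 to 1.96, SE 0.208). Against the pooled controls the unadjusted p of edgeR's quasi-likelihood test was 0.0261 and the Benjamini-Hochberg adjusted p was 0.744. Without KO replicates 1 and 6 the log2 fold change against the pooled controls was 0.29 (edgeR adjusted p = 0.992), and with the offset for length it was 0.33 (edgeR adjusted p = 0.998). With each library left out in turn it lay between 0.42 (without KO replicate 1) and 0.65 (without KO replicate 5, edgeR adjusted p = 0.675).
The spread of Tnfaip3 was set beside 4144 genes whose mean CPM lay within the range of the members (41.3 for Traf3 to 204 for Nfkbia). These genes were not matched for length. The SD of log2 CPM of Tnfaip3 was 0.455 among the 6 KO libraries, higher than in 91.3% of these genes, and 0.036 among the 4 controls, higher than in 1.74% of them. Over the same genes the medians were 0.247 and 0.156.

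Nfkbia, the IκB that dimers rapidly induce, was at 208 and 190 CPM in WT and at 199 and 173 CPM in HET. In KO it was at 311 CPM in replicate 1, at 219 CPM in replicate 6 and between 183 and 190 CPM in the other 4. KO replicate 1 was also the highest library in TPM, at 242 beside 167 to 201 in the other 5 KO libraries, and the median deviation of genes of 1000 to 2000 bases in it was 0.19 on the log2 scale. The part of length in the Nfkbia value was not tested. The log2 fold change of WT over KO went from -0.09 (SE 0.209) to 0.01 with the offset for length and to 0.09 without KO replicates 1 and 6. Nfkbie, a second inhibitor that responds to NF-κB, was at 127 and 131 CPM in WT, at 94.1 and 106 CPM in HET, and at 100, 104 and 128 CPM in KO. Both WT libraries lay above both HET libraries, and KO spanned most of the range between them. The log2 fold change of WT over HET was 0.36 (SE 0.164, edgeR quasi-likelihood unadjusted p = 0.0469, adjusted p = 0.767), and that of WT over KO was 0.22 (SE 0.139), 0.22 with the offset for length and 0.26 without KO replicates 1 and 6.

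Traf1 was at 111 and 107 CPM in WT, at 114 and 127 CPM in HET, and at 68.8, 104 and 126 CPM in KO, with the lowest value in replicate 6. The KO libraries lay within the range of the controls or below it, and none lay above it. The log2 fold change of WT over KO was 0.08 (SE 0.208), 0.13 with the offset for length and -0.03 without KO replicates 1 and 6. Traf3, an adaptor that keeps NIK low and so restrains the noncanonical pathway, was at 45.4 and 42.6 CPM in WT, at 58.2 and 42.7 CPM in HET, and at 28.1, 38.4 and 45.2 CPM in KO. In 5 of the 6 KO libraries Traf3 lay below all 4 controls. The log2 fold change of WT plus HET over KO was 0.33 (SE 0.155, edgeR quasi-likelihood unadjusted p = 0.0505, adjusted p = 0.744). It was 0.13 with the offset for length and 0.24 without KO replicates 1 and 6.

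**Figure D3:**
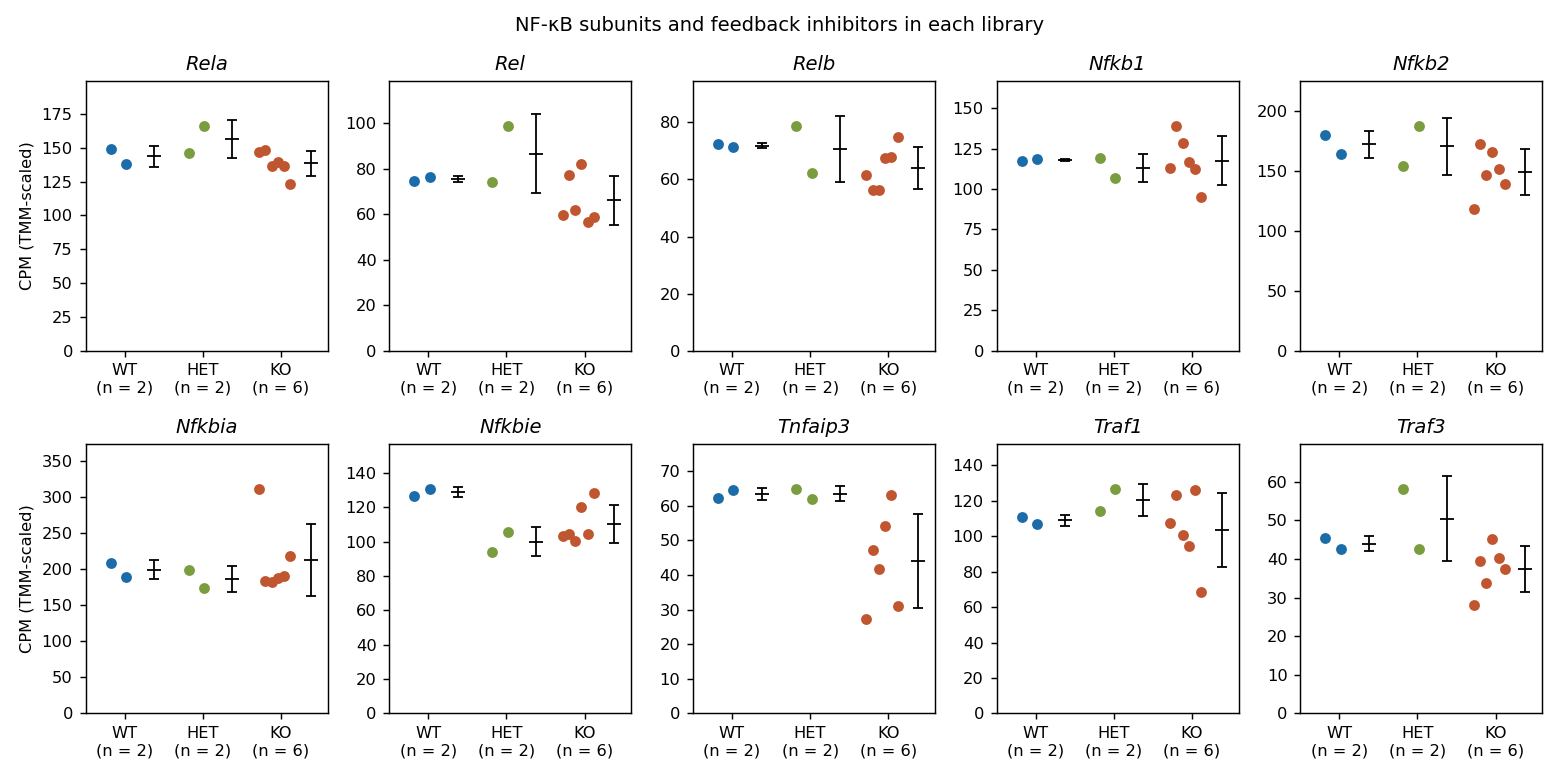
CPM of each member (y axis from 0) in every library of ZBTB38 WT (n = 2), HET (n = 2) and KO (n = 6), with 1 point per library and, beside the points, the mean and SD in black. The controls of Tnfaip3 lie at 61.8 to 64.9 CPM and its KO libraries at 27.2 to 62.9 CPM, and the KO point of Nfkbia at 311 CPM is replicate 1.

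None of the 10 members passed an adjusted p of 0.1 in any comparison with edgeR's quasi-likelihood test and Benjamini-Hochberg adjustment. For ZBTB38 WT against KO, 0.00704% of the 14203 genes tested passed, which is Zbtb38 itself. At an unadjusted p under 0.05 there were 0 members, beside 2.19% of all genes, and the members' 95% confidence intervals lay between -0.56 and 1.15 on the log2 scale. In 9 of the 10 members the fold change was positive, that is, higher in WT, with a median of 0.18 against -0.01 over all genes tested. DESeq2 also called 0 members, among 6 genes in all. For WT plus HET against KO, 0.00749% of 13347 genes passed, and 1 member (Tnfaip3) had an unadjusted p under 0.05, beside 6.3% of all genes. The fold change was positive in 8 of 10 members with a median of 0.15 against -0.02 over all genes, and DESeq2 called 0 members among 18 genes. These signs and medians come from fits without the offset for length, under which some fold changes given above fell and others rose. No member separated controls from KO completely, which 6.58% of all genes did for WT against KO and 1.51% for WT plus HET against KO.

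**Figure D4:**
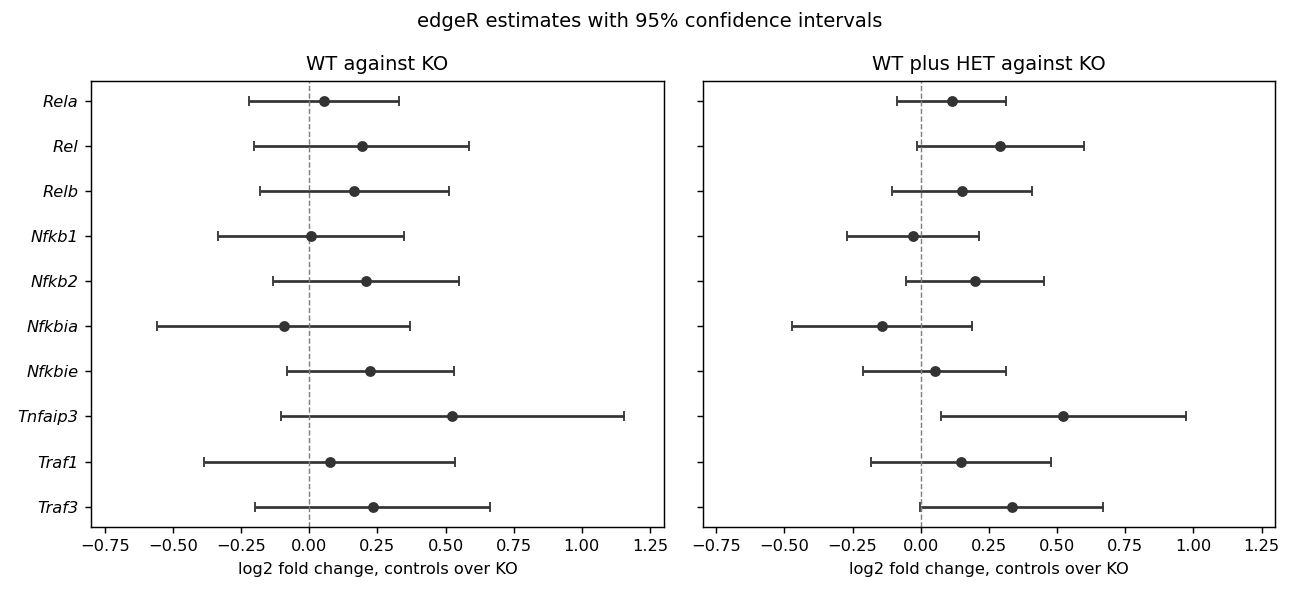
log2 fold changes of controls over ZBTB38 KO (x axis) for each member, as edgeR estimates with 95% confidence intervals, for WT against KO (left) and WT plus HET against KO (right). All intervals include 0 except that of Tnfaip3 against the pooled controls, which runs from 0.07 to 0.97.

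The heterozygous mice were compared in a fit of all 10 libraries, which shares its KO and WT libraries with the comparisons above. For ZBTB38 HET against KO, 0.00697% of 14354 genes passed and no member did. Zbtb38 itself did not pass here (log2 fold change 1.82, edgeR quasi-likelihood adjusted p = 0.128). At an unadjusted p under 0.05 there were 2 members, beside 10.2% of all genes. These were Rel (log2 fold change 0.39, edgeR quasi-likelihood unadjusted p = 0.0496, adjusted p = 0.489) and Traf3 (0.43, edgeR quasi-likelihood unadjusted p = 0.0468, adjusted p = 0.488). Both are among the longest members, and the values of both HET libraries rose with length over all genes (rho 0.39 and 0.52). What part this has in the values of Rel and Traf3 was not tested. Each value rested on 1 of the HET libraries. That of Rel was 0.58 without HET replicate 1 and 0.17 without HET replicate 2, and that of Traf3 was 0.19 without HET replicate 1 and 0.64 without HET replicate 2. No member separated HET from KO, beside 13.9% of all genes. For ZBTB38 WT against HET, 0.00697% of the same genes passed and again no member did. Nor did Zbtb38 (log2 fold change 0.49, edgeR quasi-likelihood adjusted p = 0.873). Nfkbie was the 1 member with an unadjusted p under 0.05, beside 6.42% of all genes. The libraries of WT and HET did not overlap for Nfkbie (higher in WT) and Traf1 (higher in HET), which is 2 of 10 members beside 48% of all genes. DESeq2 called 0 members in either comparison, among 458 and 125 genes. The markers of other cells differed between the same libraries: 7 myeloid markers summed to 457 to 576 CPM in WT, 88.1 to 90.4 CPM in HET and 76.0 to 759 CPM in KO, and 5 naive B cell markers to 744 to 829, 368 to 417 and 462 to 1116 CPM. The 6 T cell markers summed to 73.2 to 74.6, 15.8 to 24.9 and 23.5 to 63.9 CPM, and none of these 18 markers was at 0 in all libraries. The 6 erythroid markers summed to 44.8 to 57.1 CPM in WT, 35.5 to 38.8 CPM in HET and 56.1 to 96.5 CPM in KO, and of the 4 tested for WT plus HET against KO all 4 were lower in controls, 3 with an unadjusted p under 0.05 and 0 past the adjusted threshold. The 5 plasma cell markers summed to 1377 to 1583, 1179 to 1270 and 1163 to 1744 CPM. In sorted but bulk samples, fewer cells of a type and less RNA per cell cannot be told apart. The 6 light zone markers summed to 925 to 1034 CPM in WT, 946 to 1043 CPM in HET and 719 to 1099 CPM in KO, with the lowest sum in KO replicate 6, which also had the lowest Traf1. The 6 dark zone markers summed to 1367 to 1480, 1778 to 1849 and 1335 to 1942 CPM. The part of these cells in the members' values was not tested.

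**Figure D5:**
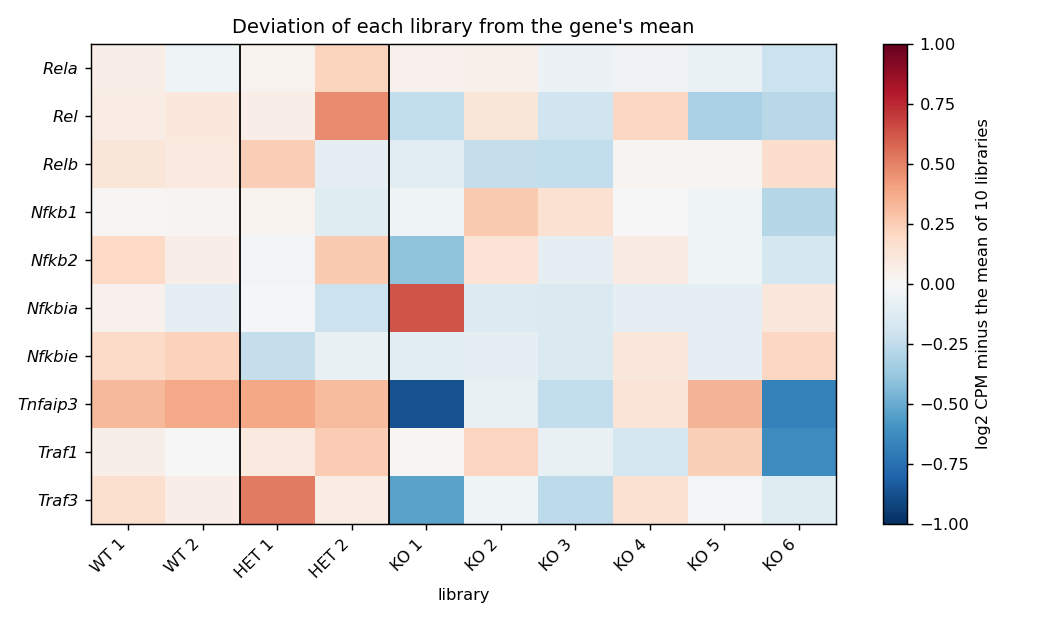
log2 CPM of each member (rows) in each library (columns) minus the member's mean over the 10 libraries, in colour from -1 (blue) to 1 (red), with black lines between the genotypes. KO replicate 1 combines high Nfkbia with low Tnfaip3, Traf3 and Nfkb2, and KO replicate 6 has low Tnfaip3 and Traf1.

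Of the 10 libraries, KO replicate 1 held the lowest value of 3 members and the highest of 1, and KO replicate 6 the lowest of 3. HET replicate 2 held the highest of 4 and HET replicate 1 the highest of 3. Over their 45 pairs the median correlation of log2 values across the 10 libraries was 0.20, with 30 pairs positive. For 5 pairs joined by their roles, Pearson's and Spearman's coefficients were tested with permutation tests and adjusted over the 5 pairs. The inhibitors Nfkbia and Tnfaip3 had r = -0.72 (two-sided permutation p = 0.0396, adjusted p = 0.198), a rho of -0.14 and an r of 0.39 after KO replicates 1 and 6, the 2 libraries farthest from the median of Nfkbia, were left out, so their inverse relation rests on these libraries. On log2(TPM + 1) their r was -0.30. Tnfaip3 and Traf1 had r = 0.57 (permutation p = 0.138, adjusted p = 0.346), rho = 0.43 and r = 0.32 without the 2 farthest libraries. Rel and Nfkb1 (r = 0.17, rho = 0.25), Relb and Nfkb2 (r = 0.02, rho = 0.01) and Nfkbia and Nfkbie (r = -0.01, rho = 0.12) had adjusted permutation p-values of 0.936 for r. The pairs differed on log2(TPM + 1), where r of Tnfaip3 and Traf1 was 0.79 and passed the threshold of 0.1 (permutation p = 0.0171, adjusted p = 0.0853). The 2 lowest TPM of each gene were in KO replicates 1 and 6 (Tnfaip3 7.41 and 8.64, Traf1 68.8 and 43.2). What part these libraries have in that r was not tested. On log2(TPM + 1), r was 0.65 for Rel and Nfkb1 (adjusted permutation p = 0.121) and 0.62 for Relb and Nfkb2 (adjusted permutation p = 0.133). In the 6 KO libraries alone, on log2(CPM + 1), the values of r were -0.79 for Nfkbia and Tnfaip3 and 0.52 for Tnfaip3 and Traf1.

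Among 8587 genes with a mean of at least 10 CPM, those most like a member across the 10 libraries were named for the most abundant inhibitor, Nfkbia, and for the subunit genes Rel and Nfkb2. Sbno2 followed Nfkb2 with r = 0.98, and r = 0.95 without HET replicate 2 and KO replicate 1. Sh3bp5 followed Rel with r = 0.94, and r = 0.96 without HET replicate 2 and KO replicate 5. Trappc2 followed Nfkbia with r = 0.95, which became 0.42 without KO replicates 1 and 6. These values describe the likeness of the highest among many genes and carry no test.

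The rest of the pathway was read from 61 genes in 5 lists: 12 receptors and their partners, 14 adaptors, 4 genes of the IκB kinase step, 11 other inhibitors and 20 target genes. None of the 61 passed edgeR's adjusted p of 0.1 in any comparison. For ZBTB38 WT against KO, 6 of 61 had an unadjusted p under 0.05, all higher in WT, which is 9.84% beside 2.19% of all genes. These included Ikbkg (NEMO), the regulatory subunit of the IκB kinase, at 73.0 ± 5.32 CPM in WT (SD, n = 2), 57.3 ± 15.5 CPM in HET (SD, n = 2) and 44.6 ± 10.8 CPM in KO (SD, n = 6), with a log2 fold change of 0.71 (SE 0.239). Map3k14, which encodes NIK, was at 50.2 ± 2.45, 41.1 ± 3.51 and 35.4 ± 6.60 CPM in WT, HET and KO, with a log2 fold change of 0.50 (SE 0.206). Both had an edgeR adjusted p of 0.999 for WT against KO and 0.744 for WT plus HET against KO. The other genes of the IκB kinase step, Ikbkb and Chuk, had smaller fold changes, and neither had an unadjusted p under 0.05 in any comparison. Ikbkb had a log2 fold change of 0.22 (SE 0.171) against WT alone and 0.14 (SE 0.128) against the pooled controls, as controls over KO. Those of Chuk were -0.11 (SE 0.189) and -0.01 (SE 0.140). Birc3, a ubiquitin ligase that works with TRAF proteins, Ccl4, a chemokine near the detection limit, and Tlr7, a sensor of RNA, were also among the 6. Tlr7 was at 15.2 ± 1.49, 3.33 ± 0.610 and 8.53 ± 2.09 CPM in WT, HET and KO, so that its log2 fold change was 0.83 for WT against KO (edgeR adjusted p = 0.999) and -1.36 for HET against KO (edgeR adjusted p = 0.314). The HET libraries were also the lowest in the naive B cell marker sum, and the part of such cells in the Tlr7 values was not tested.
For WT plus HET against KO, 5 of the 59 genes tested (8.47% beside 6.3% of all genes) had an unadjusted p under 0.05, of which 4 were higher in controls (among them Ikbkg, Map3k14 and Tab3) and 1 was lower (Myd88, the adaptor of Toll-like receptors, log2 fold change -0.30, SE 0.129). The median log2 fold changes over the 61 genes for WT against KO and the 59 for WT plus HET against KO were both 0.05, beside -0.01 and -0.02 over all genes. In the comparisons of HET with KO and of WT with HET, 6 and 5 of the 61 genes had an unadjusted p under 0.05, beside 10.2% and 6.42% of all genes. The 20 target genes had medians of 0.06 for WT against KO and -0.09 for WT plus HET against KO, of 20 and 18 genes tested.

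For 6 members more than 1 transcript was quantified, and the share of the leading transcript was compared between genotypes by two-sided exact permutation tests. A one-sided exact permutation p cannot go below 0.0357 for 2 against 6 libraries and 0.00476 for 4 against 6. The two-sided p used here doubles the smaller one-sided p, so with 2 against 6 libraries it cannot fall under 0.05. None of the 12 comparisons passed. The lowest p was that of Nfkb2, whose leading transcript made up 89.6% ± 2.55 of its TPM in WT plus HET (SD, n = 4) and 92.3% ± 1.01 in KO (SD, n = 6, exact permutation p = 0.0571, adjusted p = 0.514). The leading transcript of Relb made up 64.4% ± 10.1 in WT plus HET and 75.9% ± 7.30 in KO (exact permutation p = 0.0857, adjusted p = 0.514). Transcripts with the longest coding sequence of the gene held 100% of the TPM of Nfkb2, 96.4% of Tnfaip3, 81.6% of Relb and 79.2% of Traf1. For Nfkb1 they held 24.9% of the TPM, and most of its TPM was assigned to transcripts with coding sequences of 1603 and 811 bases instead of 2916. Both of these are listed with an untranslated region at the end but none at the start. Their listed coding sequences may therefore be incomplete at the start. For Traf3, transcripts with the longest coding sequence held 47.0% of the TPM but 81.0% of the estimated counts, because TPM divides by length and short models take a larger share of it. Rel, Rela, Nfkbia and Nfkbie were each quantified as 1 transcript.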

How the data were processed

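The 10 RNA-seq libraries were grouped by genotype and replicate as labelled. According to the study's methods, paired-end reads were quantified against Gencode vM17, and the submitters' processing notes name Salmon 0.9.1 and DESeq2 2.11.40.6. For every transcript the authors deposited an estimated count (not normalized), an effective length and a TPM value, which Salmon derives from both.

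Estimated counts of 64019 transcripts were summed per gene and rounded. CPM are scaled by TMM factors of 0.923 to 1.07, and library totals were 26612431 to 41059082. No pair of libraries of one genotype agreed within sampling noise. ZBTB38 WT against KO and WT plus HET against KO were fitted on their own libraries, and the comparisons of HET with KO and WT on all 10, with edgeR 4.0.16 in R 4.3.3 (quasi-likelihood test, filterByExpr, Benjamini-Hochberg adjustment, threshold 0.1 as in the study). Fold changes are the first group over the second. Alternatives used DESeq2 1.42.0, limma 3.58.1 on TPM, other filters and scalings, the replicate number as a block, and each library left out. Length offsets were fitted per library to the deviations of genes above a set mean level and applied to all genes tested. Fits were tested on simulated data. Correlations of log2(CPM + 1) used 100000 permutations (scipy 1.17.1).

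The members, the pathway and marker lists and the tests were chosen with earlier results of these data known. Pathway genes are named for small unadjusted p-values, and further genes for likeness to Nfkbia, Rel and Nfkb2, and the values of 1 pathway gene and 1 marker gene are not reported here. The p-values measure the spread between these mice only. Nfkb1 and Relb were not in the promoter table.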

Additional observations from a re-analysis of the deposited data

Results flagged for a closer look

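In 20 groups of CPM values (the 4 control and the 6 KO libraries of each member), the highest or lowest library was set against Dixon's limit for an isolated value, and 3 groups had one beyond it where chance gives about 1. Nfkbia was at 311 CPM in KO replicate 1, beside 183 to 219 CPM in the other 5 KO libraries. Rel was at 98.7 CPM in HET replicate 2, beside 74.2 to 76.2 CPM in the other 3 controls. Nfkb1 was at 107 CPM in HET replicate 2, below the other 3 controls at 117 to 119 CPM.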

How the results depend on the processing

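None of the 10 members was called in any comparison under any alternative, and of 700 fold changes under alternatives 40 changed sign, none of which was past the threshold. The cause of each sign change was not tested. With the replicate number as a block, the log2 fold changes of Nfkb1, Rela and Traf1 became -0.0858, -0.0373 and -0.0777 for WT against KO, and that of Traf1 became -0.0065 for WT plus HET against KO. Replicate numbers 3 to 6 occur only in KO, so fold changes against KO with the block rest on KO replicates 1 and 2. Of all libraries, KO replicate 1 held the lowest Tnfaip3 value (27.2 CPM). Tnfaip3 was 0.82 with the block for WT against KO (edgeR adjusted p = 0.545), 0.80 for WT plus HET against KO (edgeR adjusted p = 0.601) and 0.81 for HET against KO (edgeR adjusted p = 0.427). The block changed no member's call and gave 6, 0, 4 and 66 genes in all (WT against KO, WT plus HET against KO, HET against KO and WT against HET, 1 in each without it). The correlations of same-numbered libraries were -0.008 to 0.127. Deviations in WT and HET were taken from means of 2 libraries and mirror each other. These correlations therefore cannot tell whether the numbers pair the mice. For WT against KO, Nfkbia was 0.0714 on log2(TPM + 1), 0.0718 on log2(TPM + 0.1) and 0.0147 with length offsets, and Nfkb1 was -0.0176 on counts scaled by transcript length. For WT plus HET against KO, the values on these TPM scales were 0.0868 and 0.0883 for Nfkb1 and 0.0121 and 0.0122 for Nfkbia. Without KO replicates 1 and 6, Nfkb1, Nfkbia and Traf1 were -0.0763, 0.0946 and -0.0292 for WT against KO, and Nfkbia was 0.0388 for WT plus HET against KO. For WT against HET, Tnfaip3 was 0.0103 with no filter and 0.00929 with the libraries of these groups alone, a fit that called 523 genes in all and 0 members.

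With each library left out in turn, values for WT against KO ran from -0.0485 to 0.0597 for Nfkb1, from -0.00198 to 0.11 for Rela, from -0.164 to 0.0496 for Nfkbia and from -0.0188 to 0.137 for Traf1. The values for WT plus HET against KO ran from -0.0767 to 0.0282 for Nfkb1 and from -0.0199 to 0.134 for Nfkbie. Those for HET against KO ran from -0.137 to 0.0216 for Nfkb1 and from -0.0366 to 0.298 for Relb. Those for WT against HET ran from -0.015 to 0.143 for Nfkb1, from -0.124 to 0.164 for Nfkb2, from -0.391 to 0.022 for Rel, from -0.132 to 0.202 for Relb, from -0.00211 to 0.196 for Nfkbia, from -0.036 to 0.0319 for Tnfaip3 and from -0.406 to 0.0403 for Traf3.

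On log2(TPM + 1), r of Tnfaip3 and Traf1 was 0.788 (permutation p = 0.0171, adjusted p = 0.0853), past the threshold that it misses on log2(CPM + 1). The lowest TPM of both genes were in KO replicates 1 and 6. For Rel and Nfkb1, r was 0.645 on log2(TPM + 1), and without KO replicate 6 it was -0.143 on log2(CPM + 1). In the KO libraries alone, r of Relb and Nfkb2 was -0.152. For the leading Nfkb1 transcript, the difference of WT plus HET minus KO was 0.02 percentage points by TPM and -0.562 by estimated counts. With 2 WT mice, the members' 95% confidence intervals for WT against KO extend from -0.557 to 1.15 on the log2 scale.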
